A study of Homo sapiens with 6 samples.

Results

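The JAK kinases and the STAT transcription factors were followed in T24 cells, an established human bladder cancer line, after knockdown of UBC9. UBC9 is the enzyme that attaches the small protein SUMO to other proteins, and SUMO can be attached to several STAT proteins. The members were chosen by gene symbol, with earlier results of these data known. They are the kinases JAK1, JAK2 and TYK2 and the factors STAT2, STAT3, STAT4, STAT5A, STAT5B and STAT6. These are 9 of the 58174 genes listed for each library. One group of T24 cells carried an shRNA to UBC9 (shRNA-UBC9, 3 samples) and the other a scrambled shRNA (shRNA-NC, 3 samples). Cells were infected with lentivirus, with the UBC9 hairpin in the pLKO.1 vector, and were selected with puromycin and grown as stable lines, so that the shRNA-UBC9 samples rest on a single hairpin in a single line. Polyadenylated RNA was sequenced. The labels do not say whether the samples of a group came from separate cultures, and the p-values measure only the spread between these samples, which may be technical.

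JAK kinases are bound to the inner side of cytokine receptors. When a cytokine joins its receptor chains, the kinases phosphorylate each other, the receptor and a STAT protein, and the STAT pairs, enters the nucleus and binds DNA. JAK1 and TYK2 serve the receptors of type I interferon and of the IL6 family, and JAK2 serves the receptors of many growth factors and haematopoietic cytokines. STAT2 works with the DNA-binding protein IRF9 downstream of type I and type III interferons, STAT3 downstream of the IL6 family, STAT4 downstream of IL12, the STAT5 pair downstream of growth factors and haematopoietic cytokines, and STAT6 downstream of IL4 and IL13. Transcript levels carry no information on phosphorylation or SUMO attachment, which are the steps that switch these proteins.

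The libraries held between 28219032 and 36058872 reads, a depth recovered from the steps of the low values. RPKM values are reads per kilobase of transcript, scaled to the library total. Across tested genes, log2 values correlated at 0.978 or more within a group and at 0.911 to 0.943 between the groups. Of the bladder and epithelial markers, the keratin gene KRT7 was high in all libraries (216 to 627 RPKM), while CDH1, the gene of E-cadherin, was at 0 in 5 libraries and at 0.0045 RPKM in the other, and KRT5 was at 0 in all 6. The summed level of the 12 markers was 961 to 1131 RPKM in shRNA-NC and 437 to 572 RPKM in shRNA-UBC9, and 6 of the 7 tested markers fell. The 10 fibroblast and endothelial markers summed to 3.89 to 4.51 RPKM and to 1.66 to 1.97 RPKM, mostly through CDH5, which was 2.87 ± 0.287 and 0.619 ± 0.390 RPKM. PDGFRB, which reached the 0.5 RPKM required for the test in shRNA-NC alone, fell from a mean of 0.764 to 0.202 RPKM. COL1A1 rose (log2 fold change 0.95, limma adjusted p = 0.0276), but in shRNA-NC only replicate 2 reached the required level. The part of these differences in the results was not tested. CD3E, CD3D, CD2 and PTPRC, genes of T cells or leukocytes, had reads in 4 libraries and 0 in shRNA-NC replicate 1 and shRNA-UBC9 replicate 3, whereas LCK, a kinase gene of T cells, had 8 reads and 1 read in these 2 libraries. Over all tested genes the deviations of these 2 libraries from their group means correlated at 0.53, the highest value between a library of one group and a library of the other. CD3E, the gene of a T cell receptor chain, had 0, 17 and 14 reads in the shRNA-NC libraries and 19, 13 and 0 reads in the shRNA-UBC9 libraries.

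The DNA letters that STAT complexes bind were looked for in promoter windows of RefSeq (GRCh38.p14), from 250 bases before to 50 bases after each listed start. The element of the complex of STAT2 and IRF9, known as ISRE, was searched as TTTCNNTTTC, and the element of paired STAT proteins, known as GAS, as TTCNNNGAA and, in the wider form favoured by STAT6, as TTCNNNNGAA, each on both strands. The ISRE letters stood in 3.57% of 35116 windows of all genes, the GAS letters in 7.66% and the wider GAS letters in 6.44%. All 9 members matched a RefSeq entry, with 17 windows between them, and the ISRE and the GAS letters stood in 0 of them. The wider GAS letters stood in 1, a window of STAT5A. Of known STAT2 target genes, 28 matched, and the ISRE letters stood in 24 of their 40 windows (60%). Counted by gene, 20 of the 28 (71.4%) had such a window. In windows of known targets of STAT3, STAT4, STAT5 and STAT6, the ISRE letters stood in 0%, 13.3%, 0% and 30%. The GAS letters stood in 22.5%, 6.67%, 6.67%, 20% and 40% of the windows of targets of STAT2, STAT3, STAT4, STAT5 and STAT6. The lists other than that of STAT2 had only 10 or 15 windows each. The STAT5A window is shown because it was the only match among the members. The others are windows of STAT2 targets with large rises that are named below. Windows to show were sought in IRF9 first and then from the largest rise down, and the search stopped before USP18, HERC5, IFIT2 and OASL. Whether those targets hold the letters is not shown. IRF9 and CMPK2, which rose more than IFI6 in the case of CMPK2, were searched and gave no window. Either the letters or a matched entry was lacking. Each line reads 5′ to 3′ on the strand of the gene, with the matched letters in capitals. A match is a description of these letters and not of a bound site.
STAT5A, chr17:42287200-42287229, plus strand: ttttttttttTTCCTCTGAAgttaaaagaa
IFI44L, chr1:78620274-78620303, plus strand: tcctagtgagGAAAAAGAAAgttagtggca
RSAD2, chr2:6877622-6877651, plus strand: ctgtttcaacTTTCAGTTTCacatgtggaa
MX1, chr21:41420559-41420588, plus strand: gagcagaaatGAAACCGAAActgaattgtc
IFI6, chr1:27672329-27672358, minus strand: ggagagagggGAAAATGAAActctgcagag

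STAT2 and JAK1 rose in shRNA-UBC9, and the other 6 tested members did not pass the test in either direction. STAT2 rose 1.80-fold and JAK1 1.24-fold. No tested member was called lower. Members were called on an adjusted p-value below 0.05 (limma on log2(RPKM + 0.1), adjusted over all 12428 genes with at least 0.5 RPKM in at least 3 libraries). Of all tested genes, 18.8% were called higher and 18% lower by the same rule, so that 2 of 8 members called higher and 0 of 8 called lower were close to the background. With a fold above 2 also required, as for the DEGs of the study, 5.2% of genes were called higher and 2.7% lower, and 0 of 8 members in either direction. The groups did not overlap, with shRNA-UBC9 higher, for 2 of 8 members against 25.7% of genes, and, with shRNA-UBC9 lower, for 1 of 8 against 25.4%. In bulk RNA, fewer cells of a type and less RNA per cell cannot be told apart.

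**Figure D1:**
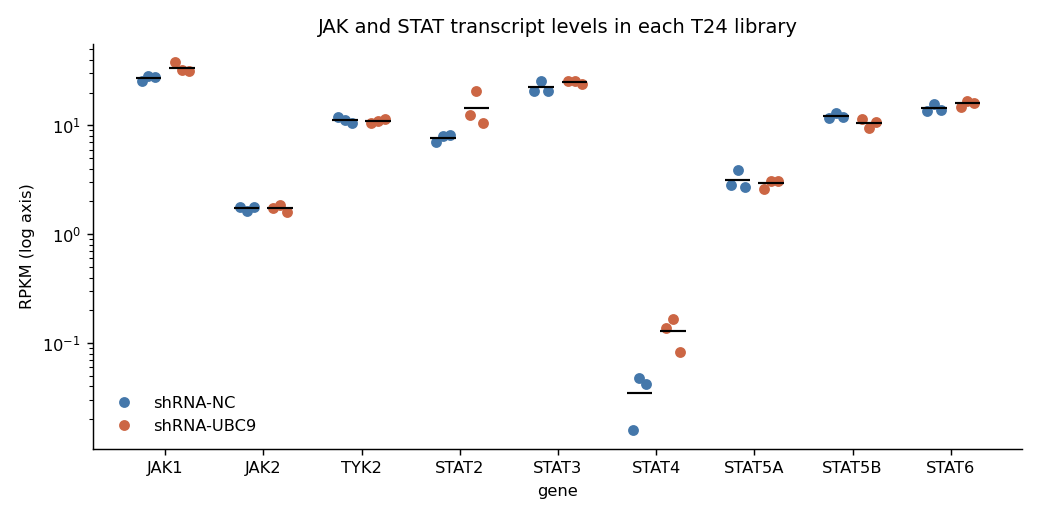
RPKM on a log axis of the 9 members in each library, with shRNA-NC in blue, shRNA-UBC9 in orange and the mean of 3 libraries as a black bar. JAK1 and STAT3 were the highest members in both groups and STAT4 the lowest, and the groups were apart for STAT2, JAK1, STAT4 and STAT5B.

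JAK1, the kinase shared by the interferon and IL6 family receptors, had the highest level of the 9 genes. It was 25.7, 28.5 and 27.6 RPKM in the shRNA-NC libraries and 37.9, 32.1 and 31.5 RPKM in the shRNA-UBC9 libraries. Every shRNA-UBC9 library was above every shRNA-NC library, and shRNA-UBC9 replicate 1 was the highest. JAK1 changed by 0.31 ± 0.10 (SE) on the log2 scale, a fold of 1.24 (95% interval 1.06 to 1.45, limma adjusted p = 0.0398). The call was close to the threshold: without any 1 library the adjusted p ranged from 0.0440 to 0.117, and it stayed below the threshold only without shRNA-UBC9 replicate 3. Between the libraries with no CD3E read, 1 in each group, JAK1 was 25.7 against 31.5 RPKM, and with a term for these libraries in the fit the adjusted p was 0.0264. JAK1 lies at chr1:64833223-65067754 on the minus strand (GRCh38), and 647 bases of its exons overlap those of LINC01359 on the same strand.

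TYK2, the partner of JAK1 at the type I interferon receptor, was 12.0, 11.2 and 10.4 RPKM in shRNA-NC and 10.4, 11.0 and 11.5 RPKM in shRNA-UBC9. The groups overlapped over nearly their whole range. Its log2 fold change was -0.03 (95% interval -0.24 to 0.18, limma adjusted p = 0.818). JAK2, the kinase of the growth hormone and erythropoietin receptors, was far lower, at 1.78, 1.65 and 1.78 RPKM in shRNA-NC and 1.73, 1.84 and 1.60 RPKM in shRNA-UBC9. Its log2 fold change was -0.01 (95% interval -0.27 to 0.26, limma adjusted p = 0.963), and 279 to 400 reads stood behind each value. On the linear scale the intervals ran from 0.849 to 1.13 for TYK2 and from 0.827 to 1.195 for JAK2, and larger changes lay outside them. TYK2 lies at chr19:10350533-10380608 on the minus strand and JAK2 at chr9:4984390-5129948 on the plus strand.

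Among the 3 kinases, JAK1 held 67.8% ± 2.35 (SD, n = 3) of the summed RPKM in shRNA-NC and 72.6% ± 2.70 in shRNA-UBC9. TYK2 held 27.9% ± 2.23 and 23.7% ± 2.53, and JAK2 4.32% ± 0.292 and 3.72% ± 0.333. The sum itself was 39.4 to 41.4 RPKM in shRNA-NC and 44.6 to 50.1 RPKM in shRNA-UBC9. In every shRNA-UBC9 library the level of TYK2 relative to JAK1 was below that in every shRNA-NC library (0.275 to 0.363 against 0.377 to 0.467), a difference of -0.34 in the log2 ratio. JAK2 relative to JAK1 was 0.0458 to 0.0574 against 0.0579 to 0.0692, a difference of -0.31 in the log2 ratio. In a two-sided exact permutation test, both gave p = 0.1, the smallest that 3 libraries against 3 allow, and 0.167 after adjustment over the 5 ratios compared.

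STAT2, the partner of IRF9 in the response to type I and type III interferon, was 7.05, 8.03 and 8.08 RPKM in the shRNA-NC libraries. It was 12.5, 20.6 and 10.5 RPKM in the shRNA-UBC9 libraries. The groups did not overlap, and shRNA-UBC9 replicate 2 stood well above the other libraries. The log2 fold change was 0.85 ± 0.22 (SE), a fold of 1.80 (95% interval 1.27 to 2.55, limma adjusted p = 0.0182), with 1286 to 4444 reads behind each value. Without any 1 library the log2 fold change ranged from 0.57, without shRNA-UBC9 replicate 2, to 1.05. The call was lost without shRNA-NC replicate 1 (adjusted p = 0.0649) and held in the other 5 of these fits. Between the libraries with no CD3E read STAT2 was 7.05 against 10.5 RPKM, and with a term for these libraries the adjusted p was 0.0134. STAT2 lies at chr12:56341597-56360203 on the minus strand, and its exons share no base with another gene.

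**Figure D2:**
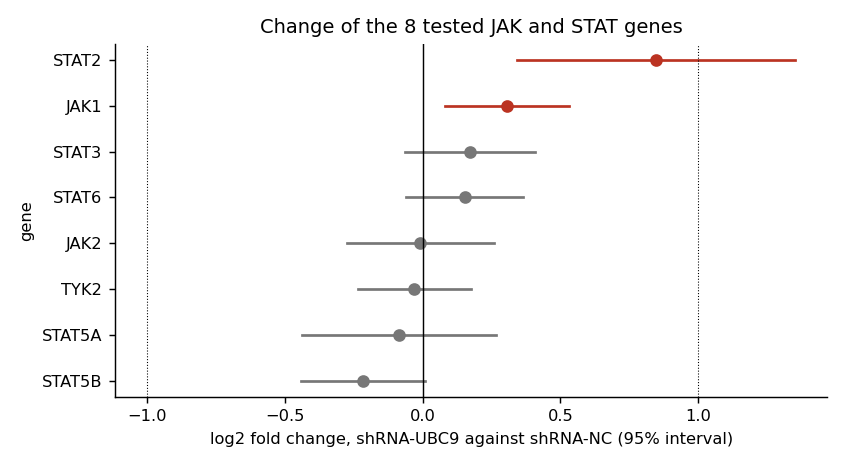
Log2 fold change of shRNA-UBC9 against shRNA-NC (x axis) with the 95% interval of the limma fit for the 8 tested members, red where the adjusted p-value was below 0.05, with dotted lines at a log2 fold change of 1 and -1. The intervals of STAT2 and JAK1 lay above 0, and those of the other 6 members held 0.

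STAT3, the factor of the IL6 family, was the highest STAT in both groups, at 20.8, 25.5 and 20.7 RPKM in shRNA-NC and 25.5, 25.8 and 23.8 RPKM in shRNA-UBC9. The groups overlapped through shRNA-NC replicate 2 alone. The log2 fold change was 0.17 (95% interval -0.07 to 0.41, limma adjusted p = 0.228). STAT6, the factor of IL4 and IL13, was 13.6, 15.6 and 13.7 RPKM in shRNA-NC and 14.9, 16.6 and 16.2 RPKM in shRNA-UBC9. Here too the overlap came from shRNA-NC replicate 2. The STAT6 log2 fold change was 0.15 (95% interval -0.06 to 0.36, limma adjusted p = 0.232). STAT3 lies at chr17:42313324-42388540 and STAT6 at chr12:57095408-57132139, both on the minus strand. Exons of STAT6 share 59 bases with LRP1 and 69 bases with NAB2, both on the plus strand.

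STAT5A and STAT5B are near copies of each other that respond to the same cytokines, and they lie head to head on chromosome 17, STAT5A at chr17:42287547-42311943 on the plus strand and STAT5B at chr17:42199176-42288633 on the minus strand. STAT5B was 11.6, 12.9 and 12.0 RPKM in shRNA-NC and 11.3, 9.37 and 10.7 RPKM in shRNA-UBC9. It was the only member with every shRNA-UBC9 library below every shRNA-NC library, but it did not pass the test (log2 fold change -0.22, 95% interval -0.44 to 0.01, limma adjusted p = 0.119). STAT5A was 2.85, 3.93 and 2.70 RPKM in shRNA-NC and 2.62, 3.09 and 3.09 RPKM in shRNA-UBC9, with overlapping groups. The log2 fold change of STAT5A was -0.09 (95% interval -0.44 to 0.27, limma adjusted p = 0.689). STAT5A relative to STAT5B was 0.225 to 0.305 in shRNA-NC and 0.231 to 0.330 in shRNA-UBC9 (exact permutation test, p = 0.6, adjusted over 5 ratios 0.75). The values of this pair are uncertain where their sequences match: 10.6% of the 50-base words of the STAT5A transcripts were also found in STAT5B transcripts, and the exons of the pair share 415 bases on opposite strands.

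**Figure D3:**
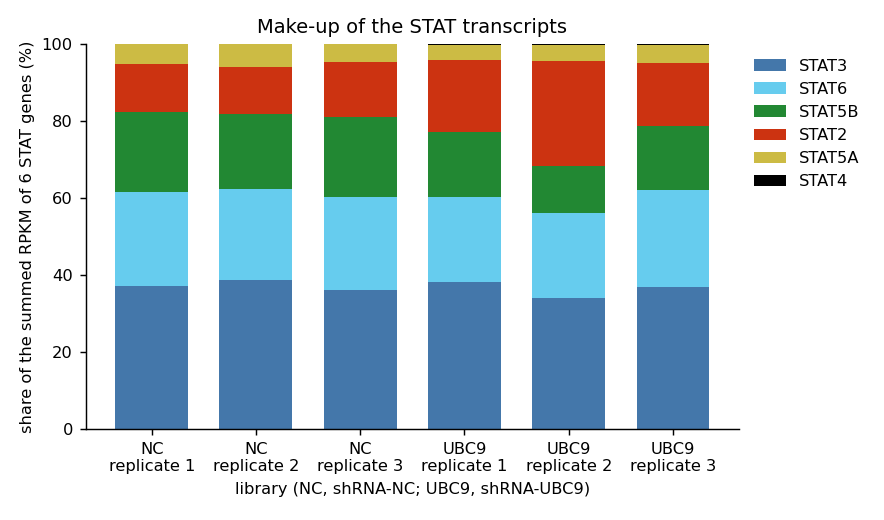
Share of each STAT gene (%) in the summed RPKM of the 6 STAT genes in each library, stacked to 100%. STAT2 took 12.2% to 14.1% of the sum in the shRNA-NC libraries and 16.3% to 27.3% in the shRNA-UBC9 libraries, while the share of STAT5B was 19.5% to 20.9% and 12.4% to 16.9%.

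Of the summed RPKM of the 6 STAT genes, STAT2 held 12.97% ± 1.01 (SD, n = 3) in shRNA-NC and 20.7% ± 5.77 in shRNA-UBC9. STAT3 held 37.3% ± 1.22 and 36.4% ± 2.06, STAT6 23.99% ± 0.325 and 23.1% ± 1.81, and STAT5B 20.4% ± 0.768 and 15.3% ± 2.53. The sum was 55.8 to 65.97 RPKM in shRNA-NC and 64.3 to 75.7 RPKM in shRNA-UBC9. STAT2 relative to STAT3 was 0.315 to 0.390 in shRNA-NC and 0.442 to 0.800 in shRNA-UBC9, without overlap (exact permutation test, p = 0.1, adjusted over 5 ratios 0.167). STAT6 relative to STAT3 was 0.612 to 0.663 and 0.582 to 0.682, with overlap (exact permutation test, p = 0.8, adjusted over 5 ratios 0.8).

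By mean RPKM in shRNA-NC, the order was JAK1 (27.3), STAT3 (22.3), STAT6 (14.3), STAT5B (12.1), TYK2 (11.2), STAT2 (7.72), STAT5A (3.16), JAK2 (1.74) and STAT4 (0.035). Only STAT5B and TYK2 overlapped as neighbours in this order. In shRNA-UBC9, JAK1 (33.8) and STAT3 (25.04) again came first, and STAT5A (2.94), JAK2 (1.73) and STAT4 (0.129) last. Between them STAT6 (15.9), STAT2 (14.6), TYK2 (11.0) and STAT5B (10.5) each overlapped with the next, so that their order was not resolved. In shRNA-NC all STAT2 libraries lay below those of TYK2 and STAT5B, and in shRNA-UBC9 replicate 3 of STAT2 lay within their ranges and the other STAT2 libraries lay above them.

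STAT4, the factor of IL12 in T cells and natural killer cells, was near the limit of detection. Its level was 0.016, 0.048 and 0.042 RPKM in shRNA-NC and 0.137, 0.167 and 0.083 RPKM in shRNA-UBC9, which is below the level required for the test. These values came from 2, 7 and 6 reads in shRNA-NC and from 21, 25 and 10 reads in shRNA-UBC9. The groups did not overlap. Over the 3 libraries of each group, 56 reads in shRNA-UBC9 against 15 in shRNA-NC gave a ratio, scaled to the library totals, of 3.69 (exact 95% interval 2.06 to 7.02), which covers counting error only and compares these libraries, not the conditions. With no filter on low values, STAT4 had a log2 fold change of 0.75 and a limma adjusted p of 0.0386, and the log2 fold change was 0.12 with a pseudocount of 1 RPKM and 1.66 with one of 0.01 RPKM.

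T cell transcripts were present in some of these libraries, and STAT4 was set beside them. CD3D had 0, 3 and 4 reads in shRNA-NC and 6, 7 and 0 in shRNA-UBC9, and PTPRC, the common leukocyte antigen, had 0, 27 and 25 reads in shRNA-NC and 19, 30 and 0 in shRNA-UBC9. The B cell gene MS4A1 was at 0 in all libraries, and the summed level of the 12 leukocyte markers was 0.876 to 1.53 RPKM in shRNA-NC and 0.803 to 1.83 RPKM in shRNA-UBC9. Much of this sum was CD14, which is not a T cell gene. CD14 was 0.657, 0.260 and 0.642 RPKM in shRNA-NC and 0.706, 0.692 and 0.752 RPKM in shRNA-UBC9. It was the only tested gene of the list and was not called (limma adjusted p = 0.2495). In both groups, the library with no CD3E read had the fewest STAT4 reads. Between these libraries STAT4 had 2 reads in shRNA-NC and 10 in shRNA-UBC9, a scaled ratio of 5.29 (exact 95% interval 1.13 to 49.6). Among the libraries with CD3E reads it had 13 and 46 reads, a ratio of 3.40 (exact 95% interval 1.81 to 6.86). On the log2(RPKM + 0.1) scale the difference was 0.66 between the libraries with no CD3E read and 0.75 over all libraries. The part of the T cell transcripts in the difference was not tested. STAT4 lies at chr2:191029576-191151596 on the minus strand, and its exons share 109 bases with the antisense gene STAT4-AS1, so that reads of the pair cannot be told apart if strand was not used.

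**Figure D4:**
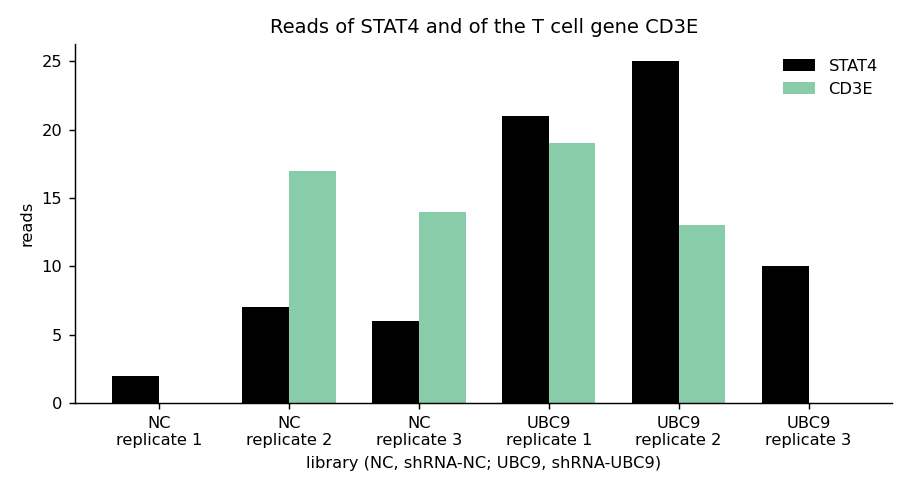
Reads of STAT4 (black) and of the T cell gene CD3E (green) in each of the 6 libraries. STAT4 had 2 to 7 reads in the shRNA-NC libraries and 10 to 25 in the shRNA-UBC9 libraries, and CD3E had 0 reads in 1 library of each group.

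The genes around the members were counted in lists written from general knowledge, with earlier results of these data known. Of 44 cytokines that act through JAK kinases, 16 were tested and 11 rose, but 4 of these (IL23A, IL24, EBI3 and IFNL1) passed the filter through the shRNA-UBC9 libraries alone and so had to differ. Of the other 12, 7 rose and 0 fell (18.8% and 18% of all genes), with a median log2 fold change of 0.67 against 0.005 over all tested genes. CSF3, the granulocyte growth factor that acts through STAT3, was 5.71, 4.45 and 1.65 RPKM in shRNA-NC and 460, 690 and 708 RPKM in shRNA-UBC9, the highest level of the list in that group. Its log2 fold change was 7.41 (limma adjusted p = 1.6e-05). IL6 followed at 1.88, 4.49 and 0.843 RPKM against 76.7, 109 and 73.8 RPKM, a log2 fold change of 5.38 (limma adjusted p = 0.000182). Both groups of libraries were well apart for these ligands of the STAT3 route, whereas STAT3 itself did not pass the test. CSF3R, the receptor gene of CSF3, was below the filter, with 0, 9 and 11 reads in shRNA-NC and 10, 8 and 0 in shRNA-UBC9. IL6R, a receptor gene of IL6, was below it too, at 0.233 to 0.257 RPKM in shRNA-NC and 0.214 to 0.279 RPKM in shRNA-UBC9.

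CSF2, the granulocyte and macrophage growth factor that acts through JAK2 and STAT5, had a log2 fold change of 4.92 (limma adjusted p = 0.000497). The CSF2 receptor chains CSF2RA and CSF2RB were below the filter, with 0 to 12 reads and 0 or 1 read in each library. IL24, a cytokine of the IL10 family that passed the filter through shRNA-UBC9 alone, was 0.034, 0.146 and 0.015 RPKM in shRNA-NC and 2.66, 1.56 and 0.609 RPKM in shRNA-UBC9. Of the interferons, IFNL1, a type III interferon upstream of STAT2, was 0.039, 0.067 and 0.069 RPKM in shRNA-NC and 0.680, 2.38 and 0.620 RPKM in shRNA-UBC9. It too passed the filter through shRNA-UBC9 alone, and it was named for its place upstream of STAT2 after its values were seen. The highest value was in shRNA-UBC9 replicate 2, the library in which STAT2 was also highest.

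Of 41 receptor chains, 19 were tested, 9 rose and 2 fell (18.8% and 18% of all genes), with a median log2 fold change of 0.48. IL6ST, the chain shared by the IL6 family, had the highest level, at 20.8, 27.4 and 23.6 RPKM in shRNA-NC and 38.2, 38.6 and 40.9 RPKM in shRNA-UBC9 (log2 fold change 0.72, limma adjusted p = 0.00180). OSMR, the oncostatin M chain that pairs with it, went from 16.99 ± 1.06 RPKM in shRNA-NC to 36.8 ± 3.72 RPKM in shRNA-UBC9 (SD, n = 3) and rose by 1.11 on the log2 scale (limma adjusted p = 0.000182). The interferon receptor chains IFNLR1 and IFNGR2 rose by 1.17 (limma adjusted p = 0.00192) and 0.9986 (limma adjusted p = 0.000551) on the log2 scale. IL22RA1, a chain of the IL22 receptor, rose by 1.26 (limma adjusted p = 0.00697). The 2 chains that fell were the leptin receptor LEPR, by 0.89 (limma adjusted p = 0.00403), and the IL11 receptor IL11RA, by 0.74 (limma adjusted p = 0.0236).

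For the STAT4 route, both IL12 receptor chains were below the filter. IL12RB1 had 3, 10 and 5 reads in shRNA-NC and 29, 28 and 10 reads in shRNA-UBC9, and IL12RB2 had 2 to 4 reads in shRNA-NC and 2 or 3 in shRNA-UBC9. In RPKM, IL12RB1 was 0.023 to 0.067 in shRNA-NC and 0.082 to 0.187 in shRNA-UBC9, without overlap, and IL12RB2 was at the limit of what these depths can show.

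Of 21 genes of proteins that hold back the pathway, 18 were tested, 4 rose and 4 fell, shares close to the 18.8% and 18% of all genes, with a median log2 fold change of -0.00. USP18, which blocks the type I interferon receptor and is itself an interferon-induced gene, rose by 2.67 (limma adjusted p = 0.00141), from 5.19, 8.72 and 5.98 RPKM to 26.8, 81.4 and 33.1 RPKM. SOCS3, the STAT3-induced inhibitor of IL6ST, rose by 1.02 (limma adjusted p = 0.00637). SH2B3, an adaptor that restrains JAK2, rose by 0.60 (limma adjusted p = 0.00175), and PIAS4, a SUMO ligase that works with UBC9, by 0.30 (limma adjusted p = 0.03004). PIAS4 was not called in 4 of the 6 fits with 1 library left out, which were those without shRNA-NC replicate 3 or any 1 of the shRNA-UBC9 libraries.

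SOCS2, the STAT5-induced inhibitor of growth hormone signalling, had the largest fall among the inhibitors, from 7.02, 7.70 and 6.87 RPKM to 2.63, 2.46 and 2.51 RPKM. The log2 fold change was -1.47 (limma adjusted p = 3.1e-05), and replicates of a group lay close together. SOCS5 fell by 0.91 (limma adjusted p = 0.000337), and the phosphatases PTPN1 and PTPN2, which remove phosphate from JAK kinases and STAT proteins, fell by 0.54 (limma adjusted p = 0.00315) and 0.52 (limma adjusted p = 0.0121). PTPN11, the phosphatase with the highest mean of the list over all 6 libraries, was 30.7 to 34.6 RPKM in shRNA-NC and 29.0 to 34.3 RPKM in shRNA-UBC9 and was not called (limma adjusted p = 0.744). The falls of SOCS2, SOCS5, PTPN1 and PTPN2 were called again in each fit with 1 library left out.

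Among 13 partners and co-regulators, all tested, 3 rose and 3 fell, again near the 18.8% and 18% of all genes, with a median log2 fold change of -0.04. IRF9, which gives the STAT2 complex its DNA binding, was 6.16, 7.79 and 6.93 RPKM in shRNA-NC and 20.4, 22.3 and 17.5 RPKM in shRNA-UBC9. It rose 2.86-fold (95% interval 2.35 to 3.48, limma adjusted p = 0.000109), while STAT2 rose 1.80-fold. NMI, which binds STAT proteins, rose by 0.82 on the log2 scale (limma adjusted p = 0.0224), and the adaptor GRB2 by 0.39 (limma adjusted p = 0.00519). NCOA1, a co-activator of STAT6, fell by 0.59 (limma adjusted p = 0.00490). The acetyltransferases CREBBP and EP300 fell by 0.41 (limma adjusted p = 0.0401) and 0.24 (limma adjusted p = 0.0418), but with 1 library left out CREBBP was called in 1 of 6 fits, without shRNA-UBC9 replicate 3, and EP300 in 0 of 6. SHC1, the adaptor with the highest level, was 74.6 to 94.2 RPKM in shRNA-NC and 87.7 to 91.1 RPKM in shRNA-UBC9 and was not called (limma adjusted p = 0.621).

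Known target genes of each STAT were set beside the STAT itself. Of 35 STAT2 targets, which are interferon-induced genes, all 35 were tested, 32 rose and 0 fell (18.8% and 18% of all genes), and 31 of the 32 rose more than 2-fold. The list was chosen with the rise of interferon-induced genes in these data already known, so that the count is not independent evidence. The median log2 fold change was 2.41, against 0.85 for STAT2. IFI44L went from 0.635, 1.85 and 1.19 RPKM to 39.9, 53.3 and 25.8 RPKM (log2 fold change 4.96, limma adjusted p = 6.8e-05). RSAD2, which encodes the antiviral enzyme viperin, went from 0.284, 0.842 and 0.263 RPKM to 9.72, 34.5 and 7.69 RPKM (log2 fold change 4.77, limma adjusted p = 0.000611). For both genes the groups were far apart. Of the shRNA-NC values of RSAD2 only that of replicate 2 reached 0.5 RPKM, so that its passing of the filter depended on shRNA-UBC9.

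MX1, an antiviral GTPase, and CMPK2, a nucleotide kinase beside RSAD2, rose by 4.53 (limma adjusted p = 0.000184) and 4.18 (limma adjusted p = 0.00115) on the log2 scale. CMPK2 was 0.304, 0.866 and 0.227 RPKM in shRNA-NC, so that its passing of the filter depended on shRNA-UBC9 too. IFI6 had the highest level of the list in shRNA-UBC9, 1105, 1616 and 814 RPKM in shRNA-UBC9 against 31.6, 226 and 35.7 RPKM in shRNA-NC, where replicate 2 stood far above the other two. The targets that were not called were HERC5 (log2 fold change 0.46), IFIT2 (0.07) and OASL (-0.11). OASL was 20.9, 13.1 and 29.2 RPKM in shRNA-NC and 14.3, 31.9 and 13.9 RPKM in shRNA-UBC9. Without both libraries numbered 2, a setting chosen after seeing the data, OASL fell by 0.80 (limma adjusted p = 0.0237), and the same 32 targets as before rose.

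**Figure D5:**
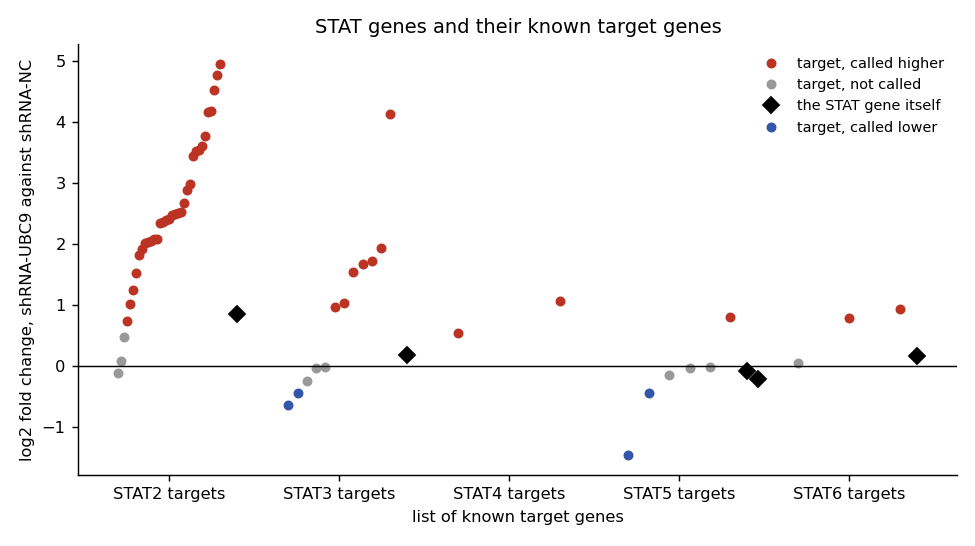
Log2 fold change of shRNA-UBC9 against shRNA-NC (y axis) of the tested target genes in 5 lists (circles, red for higher, blue for lower, grey for not called) and of the STAT genes themselves (black diamonds, none for STAT4, which was not tested). Of the STAT2 targets 32 of 35 were called higher, while the other lists held between 2 and 12 tested genes.

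Of 21 STAT3 targets, 12 were tested, 7 rose and 2 fell. FOS passed the filter through shRNA-UBC9 alone, and of the other 11, 6 rose and 2 fell (18.8% and 18% of all genes), with a median log2 fold change of 0.96 against 0.17 for STAT3. TIMP1, an inhibitor of metalloproteinases with the highest level of the list in shRNA-UBC9, went from 90.9, 81.4 and 89.9 RPKM to 303, 357 and 220 RPKM (log2 fold change 1.72, limma adjusted p = 0.000244). JUNB, which encodes a subunit of the AP-1 factor, rose by 1.66 (limma adjusted p = 0.000135), and FOS, of the same factor, was 0.279 to 0.357 RPKM in shRNA-NC and 1.02 to 2.17 RPKM in shRNA-UBC9. SAA1, an acute phase protein, was 0.131, 1.85 and 0.077 RPKM in shRNA-NC and 35.5, 6.05 and 1.85 RPKM in shRNA-UBC9. Its groups only just touched without crossing (log2 fold change 4.13, limma adjusted p = 0.0237). The survival gene BIRC5 and the cyclin gene CCND1 fell by 0.65 (limma adjusted p = 0.00404) and 0.44 (limma adjusted p = 0.0255).

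Few targets of the other STATs were expressed, so that the counts rest on few genes. They stand against 18.8% of all genes called higher and 18% called lower. Of 8 STAT4 targets 2 were tested, and both rose: HLX, a homeobox gene, by 1.06 (limma adjusted p = 0.00228), and FURIN, a protease of the secretory route with the highest level of the list, by 0.54 (limma adjusted p = 0.0203). Neither is particular to T cells. Of 11 STAT5 targets 6 were tested, 1 rose and 2 fell. BCL6, a repressor, rose by 0.80 (limma adjusted p = 0.0125), and SOCS2 and CCND1, already described, fell. CCND1, at 131 to 148 RPKM in shRNA-NC and 87.2 to 121 RPKM in shRNA-UBC9, had the highest level of that list. Of 12 STAT6 targets 3 were tested and 2 rose. TGM2, a transglutaminase with the highest level of the list, went from 111 ± 19.7 to 212 ± 47.4 RPKM (SD, n = 3; log2 fold change 0.93, limma adjusted p = 0.00465), and IL4R, the receptor chain of IL4, from 7.31 ± 0.619 to 12.6 ± 0.377 RPKM (log2 fold change 0.78, limma adjusted p = 0.000616).

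The spread of STAT2 within shRNA-UBC9 was shared with its targets. The median log2(RPKM + 0.1) of the 35 targets was 3.32, 3.35 and 3.49 in shRNA-NC and 4.82, 5.90 and 4.76 in shRNA-UBC9, and replicate 2 was the highest of the shRNA-UBC9 libraries for the targets, as it was for STAT2. The genes whose pattern over the 6 libraries was most like that of STAT2 were SP140L, a nuclear body protein (Pearson r = 0.999), UNC93B1, which carries Toll-like receptors to endosomes (0.998), VMA21, an assembly factor of the proton pump (0.994), EDEM2, of the degradation of misfolded proteins (0.992), and NT5C3A, a nucleotidase (0.991). A correlation does not show the size of a change: VMA21 (log2 fold change 0.21, limma adjusted p = 0.118) and EDEM2 (0.14, limma adjusted p = 0.216) were not called. Each correlation is over 6 libraries in 2 groups and is a description. In all, 418 tested genes had an r above 0.9, and 5 had one above 0.99.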

How the data were processed

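RNA of T24 cells was prepared with the TruSeq kit and sequenced on an Illumina HiSeq instrument. The authors mapped the trimmed reads to GRCh38 (hg38) in the CLC Biomedical Genomics Workbench with default settings and deposited RPKM values. The annotation release, the use of strand and the handling of reads with several matches are not given in the sources used here, and reads of near copies or overlapping genes are uncertain. RPKM is not corrected for RNA composition.

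Values were compared with limma 3.58.1 (R 4.3.3; lmFit, eBayes with a trend) on log2(RPKM + 0.1) for the 12428 genes with at least 0.5 RPKM in at least 3 of 6 libraries, with Benjamini-Hochberg adjustment and 0.05 as the threshold. Fold changes refer to this scale, on which those of low genes come out too small. Whole reads were recovered from the RPKM steps: 2524 of 13284 genes gave the same library totals with exon lengths of GENCODE release 44, and 100% of the 12428 genes then came out within 0.03 of a whole number in all libraries. Whether these are reads or read pairs is not stated. Gene positions are those of GENCODE release 44 (GRCh38), and transcript words and promoter windows were read from GENCODE and RefSeq. Intervals of read ratios are exact conditional ones.

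The members and lists were chosen with earlier results of these data known. The text names all 9 members, from each list up to 4 called genes with the largest rises and up to 4 with the largest falls, the gene with the highest level, and the 5 genes most like STAT2. The level of the gene targeted by the shRNA is not reported here. The other genes named were chosen after their values were seen. The limma script was tested on simulated data. The same-numbered samples did not deviate together, so the numbers were not taken as pairs. Alternatives were other pseudocounts, filters and scalings, no trend, a replicate block and each library left out, and, added after seeing the data, limma-voom on the recovered reads, both libraries numbered 2 left out, a term for the libraries with no CD3E read, and STAT4 in those libraries alone. Python 3.11.15, numpy 2.4.6, pandas 2.3.3, scipy 1.17.1, statsmodels 0.14.6 and matplotlib 3.10.9 were used.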

Additional observations from a re-analysis of the deposited data

Results flagged for a closer look

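STAT4 lay below the level required for the test and so had no part in the comparison, yet its reads stood above those of the control libraries, with 56 over the 3 shRNA-UBC9 libraries and 15 over the 3 shRNA-NC libraries. IFNB1, the gene of interferon beta, which lies upstream of STAT2, was likewise left out by the filter. It had 15, 24 and 5 reads in the shRNA-UBC9 libraries, 44 in all, and 0 in each shRNA-NC library. The fewest were again in the library with no CD3E read and the most in shRNA-UBC9 replicate 2, where STAT2 was highest.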

How the results depend on the processing

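Of the 8 tested members, 2 were called higher. The count was 1 with quantile normalization, median scaling, no trend, the replicate block or both libraries numbered 2 left out, in each case STAT2. PIAS4 was not called with median scaling or the block either. The count of members was also 1 with no filter, which then called STAT4 and neither STAT2 (adjusted p = 0.0526) nor JAK1 (0.0618), and with 1 library left out it ranged from 0, without shRNA-NC replicate 1, to 2. JAK1 had an adjusted p of 0.0833, 0.0604, 0.0597, 0.0971 and 0.0953 in the settings first named, and 0.0389 with limma-voom. STAT2 had 0.0195 with the block, 0.0154 with limma-voom and 0.0323 (log2 fold change 0.60) without both libraries numbered 2. Deviations of same-numbered libraries correlated at -0.37, 0.07 and -0.17, only replicate 2 of shRNA-UBC9 correlated best with its own number, and the block lowered the calls over all genes from 2339 to 1749 higher and from 2237 to 1625 lower.

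With at least 1 RPKM required in every library, 4 of 5 ligands rose (11 of 16 before), 0 receptors fell and 0 STAT5 targets rose. The receptors LEPR and IL11RA and the STAT5 target BCL6 had libraries below 1 RPKM, so that this filter removed them and they were not tested. With no filter, 1 receptor, 1 STAT3 target and 1 STAT5 target fell. Under the replicate block, 1 partner, 1 STAT3 target and 1 STAT5 target fell, and without the trend 1 partner. Without both libraries numbered 2, 2 inhibitors and 1 STAT4 target rose, 0 STAT5 targets rose, and 1 partner, 1 STAT2 target, 1 STAT3 target and 1 STAT5 target fell.

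With 1 library left out, 1 to 3 receptors and 1 to 3 partners fell (1 receptor without shRNA-NC replicate 1 or 3 or shRNA-UBC9 replicate 2, IL11RA being lost, and 1 partner in these fits and without shRNA-UBC9 replicate 1; EP300 was lost in all 6 fits and CREBBP in 5, and the count was 2 without shRNA-NC replicate 2 and 3 without shRNA-UBC9 replicate 3 because SH2B1 was gained). In the same fits 1 to 2 STAT3 targets and 1 to 2 STAT5 targets fell (CCND1 was lost without replicate 2 of either group or shRNA-NC replicate 1), and 1 to 2 STAT4 targets rose (1 without shRNA-UBC9 replicate 3). SAA1 and NMI were not called without shRNA-NC replicate 1 or 3, and 9 to 11 ligands, 9 to 10 receptors, 3 to 4 inhibitors and 32 to 33 STAT2 targets rose. Members that were not called changed sign close to 0: STAT5A ranged from -0.187 to 0.076 (0.038 without both libraries numbered 2), JAK2 from -0.053 to 0.041 and TYK2 from -0.082 to 0.019. The log2 ratio of STAT6 to STAT3 ranged from -0.071 to 0.042. The sign of STAT2, STAT3, STAT5B, STAT6 and JAK1 held in each of these fits.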
